A study of Mus musculus with 6 samples.

Results

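Rbfox2, Rbfox3, Elavl1, Elavl2, Elavl3, Elavl4, Nova1, Nova2, Ptbp1 and Ptbp2 encode RNA-binding proteins that set neuronal splicing and mRNA stability, and they are described here in mouse glioblastoma cells with and without an edited Bcat1 gene. The 10 genes were taken by name from the 49585 genes of the deposited tables, and each name matched 1 row. They come from 4 families, and they were chosen by their read counts in Bcat1-KO and control libraries, after Rbfox3 and Elavl2 had been seen to differ in opposite directions. This comparison therefore chose them. They were part of the fit over all genes, but their own values are given below as a description and no test of them is read. The libraries were 3 of Bcat1-KO cells and 3 of control cells of mGB2, a mouse line labelled as glioblastoma stem cells. All 6 were untreated and had grown attached to coated plates, in a medium with the supplements N2 and B27 and the growth factors EGF and FGF. Bcat1 encodes a cytosolic enzyme that removes the amino group of branched-chain amino acids. The labels do not say whether the knockout is a single clone or whether replicates came from separate cultures, so p-values measure only the spread between these libraries, which can be technical.

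As background, Rbfox proteins bind the RNA word UGCAUG beside exons through a single RNA recognition motif, and Rbfox3 is the NeuN antigen by which pathologists count mature neurons. Elavl proteins bind AU-rich and U-rich stretches and stabilise many mRNAs. Elavl1 (HuR) is present in nearly every cell, whereas Elavl2, Elavl3 and Elavl4 are typical of neurons. Nova proteins bind YCAY repeats through KH domains and control exons of synaptic genes. Ptbp1 binds pyrimidine-rich RNA and holds back neuronal exons in dividing cells, among them an exon of Ptbp2, its neuronal relative. Its fall during neurogenesis is a known switch of neuronal splicing. Rbfox2, Elavl1 and Ptbp1 are thus the broadly expressed members of their families, and the name neuronal fits only the other 7 by their known roles.

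Reads of related genes can be told apart only where their sequences differ, so the coding stretch that encodes RNP1, the RNA-contacting core of an RNA recognition motif, is shown for the Rbfox and Elavl genes. Each line gives 60 bases 5′ to 3′ from the longest coding transcript in GENCODE M21, and capitals mark positions at which the relatives shown are not all the same.
Rbfox2: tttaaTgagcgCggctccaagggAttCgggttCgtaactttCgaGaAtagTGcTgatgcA
Rbfox3: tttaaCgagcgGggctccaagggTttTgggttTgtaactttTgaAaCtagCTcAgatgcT
Elavl1: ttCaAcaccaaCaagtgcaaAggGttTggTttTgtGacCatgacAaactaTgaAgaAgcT
Elavl2: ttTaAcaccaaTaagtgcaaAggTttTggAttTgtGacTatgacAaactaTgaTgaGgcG
Elavl3: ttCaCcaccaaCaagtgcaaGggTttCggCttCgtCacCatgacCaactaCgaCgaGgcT
Elavl4: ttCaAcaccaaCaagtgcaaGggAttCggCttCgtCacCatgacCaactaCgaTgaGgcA
The Rbfox pair differs at 12 of these 60 positions, 10 of them at the last base of a codon, and the Elavl genes vary at 15 positions, 14 of them at the last base of a codon. Even in this conserved core the mRNAs are therefore distinct. Over the whole coding sequence, Rbfox2 and Rbfox3 were 70.0% identical at aligned bases, Nova1 and Nova2 69.6%, and Ptbp1 and Ptbp2 70.1%. The Elavl pairs ranged from 71.6% for Elavl1 and Elavl3 to 78.4% for Elavl3 and Elavl4. No run of 50 bases was shared between the annotated transcripts of any pair within a family.

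The libraries held 35608024 to 37800648 strand-matched counts in Bcat1-KO cells and 29543157 to 33550412 in control cells. Levels are given in CPM, counts divided by library size after scaling with the TMM method, which sets libraries to a common composition. Bcat1 RNA was at 155, 176 and 173 CPM in Bcat1-KO cells and 214, 223 and 232 CPM in control cells, and whole-gene counts do not show whether an edited exon is present. Values with ± are means and SDs over the 3 libraries of a group. Of 14020 genes tested with edgeR's quasi-likelihood test, 62.3% passed at an adjusted p (Benjamini-Hochberg) under 0.05, with 32% higher in Bcat1-KO cells and 30.3% lower. Of 11 neural stem cell markers, all were detected in Bcat1-KO cells and all but Prom1 in control cells. Their summed level was 3338 to 3557 CPM in Bcat1-KO cells and lower, at 1779 to 1872 CPM, in control cells. Of these 11 genes, 9 were higher and 0 lower, and since the list was chosen with earlier results of these data known, nothing is read from these counts. Markers of immune and endothelial cells summed to 0.305 to 0.78 CPM in Bcat1-KO cells and 0.422 to 0.516 CPM in control cells, with Cldn5 at 0 counts throughout. Fibroblast and mural markers summed to 24.8 to 28.6 CPM in Bcat1-KO cells and 45.2 to 49.4 CPM in control cells. Of the 4 tested, Pdgfra was at 21.6 ± 1.24 CPM in Bcat1-KO cells and 21.8 ± 1.18 CPM in control cells and did not pass, while Col1a1, Pdgfrb and Acta2 fell. Col1a1 was at 4.21 ± 0.973 CPM in Bcat1-KO cells and 17.7 ± 0.783 CPM in control cells, Pdgfrb at 0.224 ± 0.0872 CPM against 4.54 ± 0.0349 CPM in control cells, and Acta2 at 0.0714 ± 0.0393 CPM against 2.88 ± 0.314 CPM in control cells. Col1a2, Dcn and Lum were below 1 CPM in both groups. The part of such cells in the values below was not tested.

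All 10 genes passed the expression filter. In each of them the knockout libraries lay entirely on one side of the control libraries, 5 above and 5 below. Among all tested genes 67.7% had groups that did not overlap, 35.1% with the knockout above and 32.5% with the knockout below. All 10 were also past the threshold in the fit over all genes, beside 62.3% of those tested. A fitted difference of at least 2-fold was seen in 6 of the 10, beside 19.2% of tested genes. Since this comparison chose the genes, nothing is read from these counts. The median log2 fold change was 0.20 for the 10 genes and 0.01 for all tested genes. In bulk RNA, fewer cells that express a gene and less RNA per cell cannot be told apart, and this holds for each value below.

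**Figure D1:**
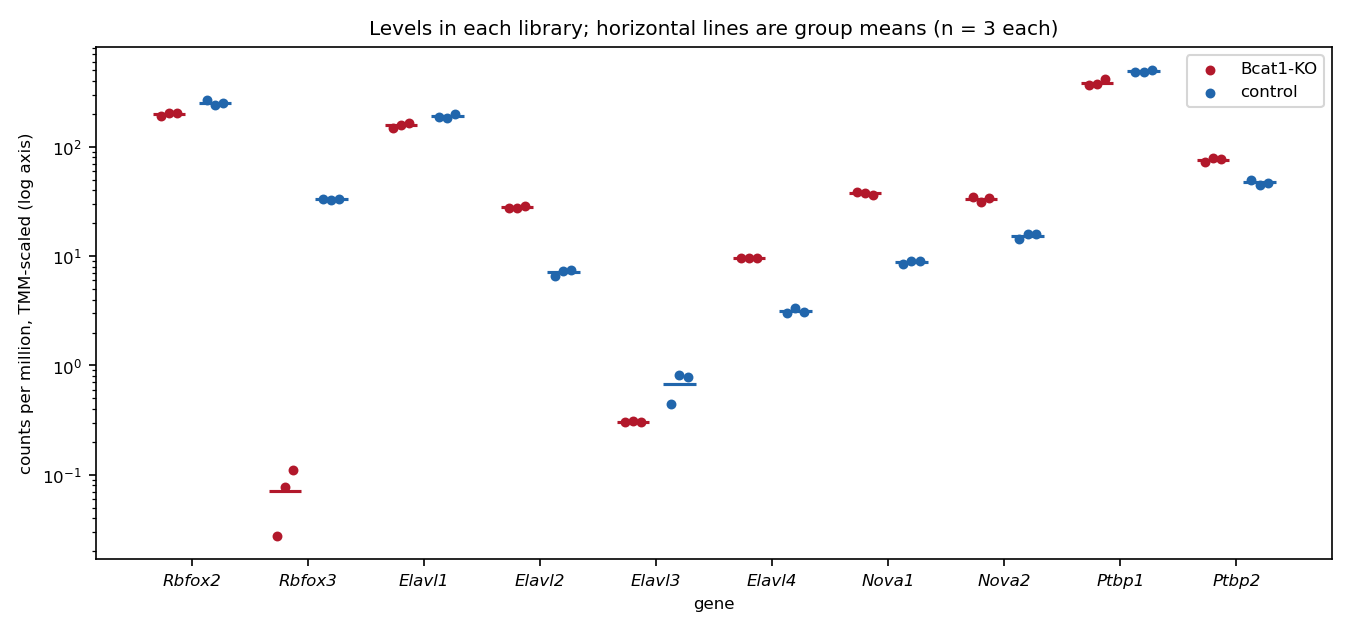
Levels of the 10 genes in CPM on a log axis, with 1 point per library, Bcat1-KO left of control, and lines at the group means. Rbfox3 lies at 0.0277 to 0.110 CPM in Bcat1-KO cells against 32.3 to 33.6 CPM in control cells, while Elavl2, Elavl4, Nova1, Nova2 and Ptbp2 sit higher in every knockout library.

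As a fold, the Rbfox pair differed mainly in Rbfox3. Rbfox3 (ENSMUSG00000025576.17, chr11:118489762-118911597 in mm10, minus strand) had 1, 3 and 4 counts in Bcat1-KO libraries and 1050, 1073 and 975 counts in control libraries. In CPM these are 0.0277, 0.0780 and 0.110 in Bcat1-KO cells against 33.4, 32.3 and 33.6 in control cells. The transcript was thus close to the limit of detection in every knockout library and moderately abundant, and even, in control cells. The knockout sum of 8 counts has an exact 95% Poisson interval of 3.45 to 15.8, which covers counting error only. The fitted log2 fold change was -8.77 (SE 0.19), or 437-fold lower in Bcat1-KO cells, and it was -4.19 on the log2(TPM + 1) scale, on which the added 1 compresses low values. No exon of Rbfox3 overlapped an exon of another annotated gene on either strand, so no annotated exon of another gene competes for its reads.

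Rbfox2 (chr15:77078990-77307053) is the broadly expressed relative and binds the same RNA word. It had 191, 202 and 205 CPM in Bcat1-KO cells and 266, 241 and 253 CPM in control cells. All 3 knockout libraries lay below the control, with a log2 fold change of -0.35 (SE 0.07). Compared per length in TPM, the deposited unit that divides counts by gene length and depth, the 2 genes summed to 88.8 ± 4.96 in Bcat1-KO cells and 127 ± 6.76 in control cells. Both genes had a part in the lower sum. Rbfox2 was at 88.8 ± 4.93 TPM in Bcat1-KO cells and 109 ± 6.30 TPM in control cells. Rbfox3 was at 0.0407 ± 0.0238 TPM in Bcat1-KO cells and 18.0 ± 0.510 TPM in control cells. Rbfox3 made up 0.0450 ± 0.0249% of that sum in Bcat1-KO cells and 14.2 ± 0.428% in control cells. Rbfox1, a further gene of the family, had 4 counts over the knockout group and 4 over the control group, so in Bcat1-KO cells nearly all measured Rbfox RNA came from Rbfox2.

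The Elavl genes differed in composition more than in sum. Elavl2 (ENSMUSG00000008489.18, chr4:91250763-91400785, minus strand), a neuronal stabiliser of AU-rich mRNAs, had 27.3, 27.7 and 28.9 CPM in Bcat1-KO cells against 6.61, 7.29 and 7.54 CPM in control cells. The libraries of each group lay close together, and the fitted difference was 3.91-fold higher in Bcat1-KO cells (log2 fold change 1.97, SE 0.09). Elavl4 (HuD, chr4:110203722-110351909) had 9.70, 9.69 and 9.60 CPM in Bcat1-KO cells and 2.99, 3.34 and 3.06 CPM in control cells. It was thus higher in every knockout library too, by 3.08-fold in the fit (log2 fold change 1.62, SE 0.12). Both genes lie on chromosome 4, and neither shared exonic bases with another gene.

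Elavl3 (HuC, chr9:22015005-22052023), which marks early and mature neurons, went the other way at a very low level. It had 0.305, 0.312 and 0.303 CPM in Bcat1-KO cells and 0.445, 0.813 and 0.792 CPM in control cells, or 34 and 64 counts over the groups. The groups did not overlap, but control replicate 1 lay nearer to the knockout than to the other control libraries. The log2 fold change was -1.15 (SE 0.32), and -0.19 on the log2(TPM + 1) scale. In GENCODE M21, exons of another gene on the same strand cover 3.72% of Elavl3's exonic length, as they do 3.54% of Nova1's. In the deposited tables the gene that overlaps Elavl3 on its strand had 0 counts in both groups. Elavl1, the ubiquitous member (chr8:4285382-4325413), had 149, 157 and 166 CPM in Bcat1-KO cells and 189, 185 and 199 CPM in control cells. It was 1.22-fold lower in Bcat1-KO cells (log2 fold change -0.28, SE 0.07).

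Per length, the Elavl genes summed to 62.5, 67.3 and 70.3 TPM in Bcat1-KO cells and 62.6, 60.9 and 65.9 TPM in control cells. These sums overlapped between the groups. The share of the neuronal members Elavl2, Elavl3 and Elavl4 did not overlap, at 25.6 ± 0.692% in Bcat1-KO cells and 7.70 ± 0.554% in control cells. Elavl1 remained the most abundant Elavl mRNA in all 6 libraries.

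**Figure D2:**
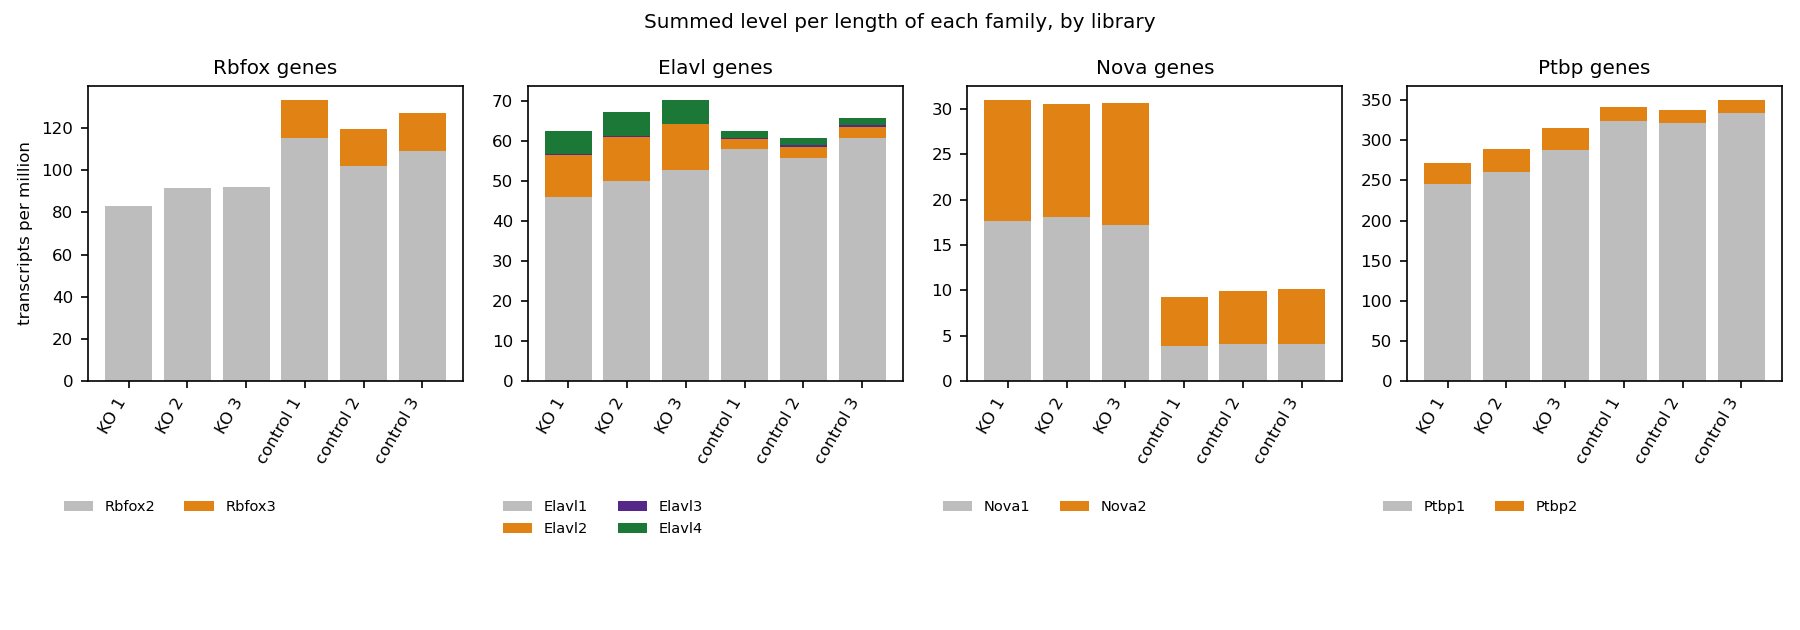
Stacked TPM levels of each family in each library, knockout left of control. The Elavl stacks have similar heights with a larger neuronal part in Bcat1-KO cells, the Nova stack stands at 30.7 ± 0.226 TPM in Bcat1-KO cells against 9.79 ± 0.465 TPM in control cells, and the Rbfox3 part is visible only in control cells.

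Both Nova genes were higher in Bcat1-KO cells. Nova1 (ENSMUSG00000021047.6, chr12:46694517-46818775, minus strand), which controls exons of inhibitory receptor genes, had 38.6, 38.1 and 36.4 CPM in Bcat1-KO cells and 8.43, 9.10 and 8.95 CPM in control cells. At 4.27-fold (log2 fold change 2.10, SE 0.08) it had the largest difference upward among the 10 genes. Nova2 (ENSMUSG00000030411.15, chr7:18925888-18965319, plus strand), which acts mainly in the cortex, had 34.6, 31.4 and 34.3 CPM in Bcat1-KO cells and 14.3, 15.8 and 16.1 CPM in control cells. Its difference was smaller, 2.17-fold (log2 fold change 1.12, SE 0.08). Summed per length, Nova RNA stood at 31.0, 30.5 and 30.7 TPM in Bcat1-KO cells and 9.26, 9.97 and 10.1 TPM in control cells. Nova1 made up 57.4 ± 1.64% of the sum in Bcat1-KO cells and 40.7 ± 0.707% in control cells, so the more abundant Nova gene per length was Nova1 in Bcat1-KO cells and Nova2 in control cells. Exons on the opposite strand cover 31.7% of Nova2's exonic length, and the difference was 1.05 to 1.15 on the log2 scale over the 13 alternatives, which include counts without regard to strand.

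The Ptbp pair differed in opposite directions. Ptbp1 (chr10:79854427-79864771, plus strand), the repressor of neuronal exons, had 364, 373 and 414 CPM in Bcat1-KO cells and 484, 488 and 501 CPM in control cells. Per length it was the most abundant of the 10 mRNAs in both groups, and in CPM it was 1.28-fold lower in Bcat1-KO cells (log2 fold change -0.35, SE 0.07). Ptbp2 (chr3:119718742-119784466, minus strand), the neuronal relative whose mRNA Ptbp1 is known to send to decay by skipping an exon, had 73.2, 78.7 and 77.0 CPM in Bcat1-KO cells and 50.1, 44.8 and 46.8 CPM in control cells. Every knockout library was above every control library, by 1.62-fold in the fit (log2 fold change 0.69, SE 0.07). Ptbp2 made up 9.33 ± 0.533% of the summed Ptbp1 and Ptbp2 TPM in Bcat1-KO cells and 4.74 ± 0.302% in control cells. Whole-gene counts do not show whether that exon was included. Opposite-strand exons, including those of Plppr3, cover 20.7% of Ptbp1's exonic length. Counts on the strand opposite to Ptbp1 were 46 over the knockout group and 25 over the control group, against 42555 and 45959 on the gene's own strand.

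**Figure D3:**
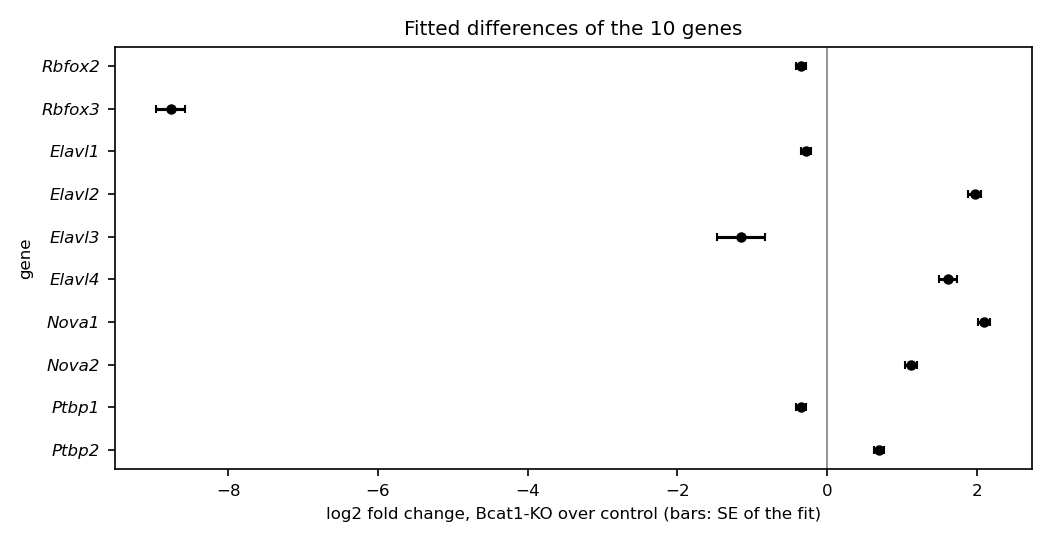
Fitted log2 fold changes of the 10 genes, Bcat1-KO over control, with bars for the standard error of the fit. The points run from -8.77 for Rbfox3 to 2.10 for Nova1, with Rbfox2, Elavl1 and Ptbp1 between -0.35 and -0.28.

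The order of the 10 levels per length changed with genotype below the broadly expressed genes. In the knockout the order was Ptbp1 (265 ± 21.1 TPM), Rbfox2 (88.8 ± 4.93), Elavl1 (49.7 ± 3.36), Ptbp2 (27.3 ± 1.48), Nova1 (17.6 ± 0.453), Nova2 (13.1 ± 0.553), Elavl2 (11.0 ± 0.479), Elavl4 (5.88 ± 0.0994), Elavl3 (0.146 ± 0.00423) and Rbfox3 (0.0407 ± 0.0238). No neighbours in that order overlapped in their libraries. In the control it was Ptbp1 (327 ± 6.64 TPM), Rbfox2 (109 ± 6.30), Elavl1 (58.3 ± 2.47), Rbfox3 (18.0 ± 0.510), Ptbp2 (16.3 ± 1.06), Nova2 (5.81 ± 0.338), Nova1 (3.98 ± 0.132), Elavl2 (2.71 ± 0.172), Elavl4 (1.83 ± 0.0932) and Elavl3 (0.313 ± 0.0929). Only Rbfox3 and Ptbp2 overlapped there. Rbfox3 thus ranked 10 of 10 in Bcat1-KO cells and 4 of 10 in control cells.

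Genes whose pattern over the 6 libraries was nearest to Rbfox3 and Elavl2 were sought among 10228 other protein-coding genes whose mean level was 2 or more in log2 CPM, by Euclidean distance of centred log2 CPM. Fetub, at a distance of 0.498, was nearest to Rbfox3, with 0.0724 ± 0.0577 CPM in Bcat1-KO cells and 27.2 ± 1.13 CPM in control cells. Rims3, a presynaptic gene, followed at 0.578, with 0.791 ± 0.181 CPM in Bcat1-KO cells and 167 ± 3.68 CPM in control cells, and Rassf9 at 0.759. Nearest to Elavl2 was Olig1, an oligodendrocyte lineage factor, at 0.0971, with 327 ± 16.8 CPM in Bcat1-KO cells and 82.9 ± 6.73 CPM in control cells. Ubash3b and Calcrl, a receptor of the calcitonin family, followed at 0.123 and 0.133. With 6 libraries in 2 groups, these distances mostly compare the size of the difference in log2 CPM. A small count was added before the log, which compresses the low knockout values of Rbfox3 and of the genes nearest to it. Their distances are therefore smaller than the fitted log2 fold changes imply, at -8.77 for Rbfox3, -8.49 for Fetub, -7.71 for Rims3 and -10.36 for Rassf9.

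All of the 5 nearest tested genes on each side had smaller differences than the named gene at Rbfox3 and at Elavl2. At the other 8 genes at least 1 neighbour had a larger one. Rbfox3 and Elavl2 were the genes whose differences had been seen before the choice, so nothing is read from this split. Some of it rests on near ties, with Epor at -1.17 beside Elavl3 at -1.15 and Spata6 at 1.69 beside Elavl4 at 1.62. The neighbours spanned 0.896 Mb at Rbfox3, 5.56 Mb at Elavl2, 10.2 Mb at Nova1, 2.09 Mb at Nova2 and 0.238 Mb at Ptbp1, so they are not equally near. Among all tested genes 32% were higher and 30.3% lower. Around Rbfox3, 5 of 10 neighbours were lower, 0 were higher and the median log2 fold change was -0.31. C1qtnf1, the neighbour with the largest change, had a log2 fold change of -3.90 (adjusted p = 1.01e-10, edgeR quasi-likelihood test), while the adjacent Engase and Cbx2 were at -0.13 and -0.08 and did not pass. Around Elavl2 the median was 0.01, with values from -0.56 to 0.64. Around Nova1, 8 of 10 neighbours were higher and 1 lower, with a median of 0.40, and Nrcam and Prkd1 reached 3.12 and 3.16. On one side of Nova2, Hif3a and Ppp5c rose by 4.15 and 3.06 on the log2 scale (adjusted p = 6.11e-08 and 3.08e-11, edgeR). Psg29 and Ceacam3, which lie between these and Nova2, were at 0 counts in all control libraries, so their bars in the plot of neighbours are no bound on a fold. The genes next to Nova2 were flat by comparison, where Ccdc61, Mypop, Irf2bp1, Sympk and Dmwd had log2 fold changes of -0.10 to 0.13 and did not pass. Around Ptbp1, 8 of 10 neighbours were lower and 1 higher, with a median of -0.53, so the genes around Ptbp1 were on the median lower than Ptbp1 itself at -0.35. The neighbours named were chosen after their values were seen.

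RefSeq start sites with windows of 300 bases were at hand for 9 of the 10 genes, and those of the gene nearest to absence in Bcat1-KO cells and of the gene with the largest difference upward are shown, 5′ to 3′ on the gene's strand in GRCm38.p6, with CG dinucleotides in capitals. The first is chr11:118760992-118761291 and the second chr12:46818718-46819017, both on the minus strand.
Rbfox3: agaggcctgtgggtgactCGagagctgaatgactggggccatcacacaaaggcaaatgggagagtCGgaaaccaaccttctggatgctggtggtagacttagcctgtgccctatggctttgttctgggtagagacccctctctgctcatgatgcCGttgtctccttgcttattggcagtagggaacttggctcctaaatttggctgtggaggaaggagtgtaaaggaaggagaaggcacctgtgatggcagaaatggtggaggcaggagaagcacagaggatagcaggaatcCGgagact
Nova1: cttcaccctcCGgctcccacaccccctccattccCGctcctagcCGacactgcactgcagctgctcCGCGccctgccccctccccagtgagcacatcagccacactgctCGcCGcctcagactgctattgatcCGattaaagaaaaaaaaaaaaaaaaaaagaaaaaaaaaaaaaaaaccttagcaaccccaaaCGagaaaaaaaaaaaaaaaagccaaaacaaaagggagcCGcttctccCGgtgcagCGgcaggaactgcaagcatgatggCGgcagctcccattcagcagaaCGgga
The Rbfox3 window holds 4 CG and the Nova1 window 14, where the median of 32851 windows is 7. The other windows of these genes hold 4 to 39. The Rbfox3 start site lies 150556 bases inside the 5′ end that the deposited table gives, so it need not be the one used in these cells. The word CAGCTG, an E-box that reads the same on both strands, was found in 8 of the 17 windows of the 9 genes and in 16.3% of all windows. The 8 belong to Elavl2, Elavl3, Elavl4, Ptbp1 and Nova1, and 6 of the 17 windows are those of Elavl2 and 4 those of Elavl4, several of which overlap, so the windows are not independent and the shares are not compared. TTCAGCACC, the left part of the site of the neuronal gene repressor Rest, was searched on both strands and found in 0 of the 17 windows and in 0.371% of all windows.

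Other RNA-binding proteins of neural cells differed about as often as genes at large. Of 54 listed, 42 were tested, and 13 rose, 14 fell and 15 did not pass, or 64.3% past the threshold beside 62.3% of all genes. The median log2 fold change was -0.06. This list and those below were chosen with earlier results of these data known, so the shares past the threshold are a description. Khdrbs3, a splicing regulator of neurexin genes in neurons, had 58.2, 46.6 and 51.4 CPM in Bcat1-KO cells and 0.572, 0.994 and 0.826 CPM in control cells. It had the largest rise in this list, by 6.02 on the log2 scale (SE 0.16; edgeR adjusted p = 3.62e-11). Raver2, a partner of Ptbp proteins, rose to 1.66 ± 0.196 CPM in Bcat1-KO cells against 0.125 ± 0.0812 CPM in control cells, and Cpeb3, a translational regulator at synapses, to 1.33 ± 0.190 CPM against 0.534 ± 0.172 CPM in control cells (adjusted p = 3.85e-06 and 0.00133, edgeR).

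In the other direction, Celf4, a neuronal RNA-binding protein, had 0.332, 0.338 and 0.220 CPM in Bcat1-KO cells and 4.13, 4.52 and 3.65 CPM in control cells. It fell by 3.77 on the log2 scale (SE 0.23, adjusted p = 5.19e-08, edgeR). Cpeb1, a regulator of polyadenylation, fell to 0.288 ± 0.0598 CPM in Bcat1-KO cells against 1.90 ± 0.453 CPM in control cells. Igf2bp3, a fetal mRNA-binding protein, fell to 10.5 ± 1.27 CPM in Bcat1-KO cells against 29.8 ± 1.85 CPM in control cells. Ptbp3, a further Ptbp gene that was not among the 10, fell to 76.5 ± 2.44 CPM in Bcat1-KO cells against 91.0 ± 4.05 CPM in control cells (adjusted p = 0.00454, edgeR) and was named after its value was seen.

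General splicing factors moved little. Of 45, 9 rose, 11 fell and 25 did not pass, which is 44.4% past the threshold beside 62.3% of all genes, and log2 fold changes stayed between -0.98 and 0.43. The split was 13 rising and 8 falling on the log2(TPM + 1) scale, and the number rising was 5 without Bcat1-KO replicate 2 or without control replicate 2, so the split between rising and falling depended on the scale and on single libraries. Srsf5, an SR protein, fell to 189.8 ± 26.3 CPM in Bcat1-KO cells against 373 ± 35.4 CPM in control cells (log2 fold change -0.98, SE 0.10; edgeR adjusted p = 6.27e-06). Rbm25 and Prpf8, a core subunit of the spliceosome, had log2 fold changes of -0.69 and -0.37. Hnrnpf, which binds G-rich RNA, rose to 260.1 ± 12.7 CPM in Bcat1-KO cells against 194 ± 4.27 CPM in control cells, and Matr3 and Sfpq had log2 fold changes of 0.32 and 0.30.

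**Figure D4:**
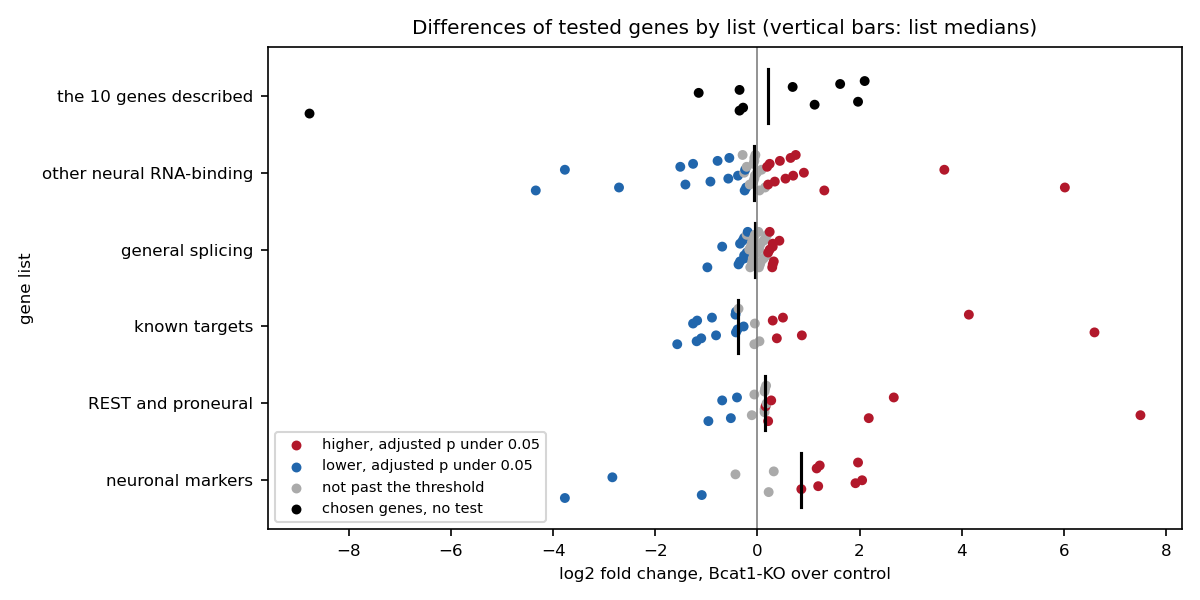
Log2 fold changes, Bcat1-KO over control, of the 10 genes (black, in the fit but with no test read from them) and of tested genes in 5 lists. List genes are coloured by the edgeR result, and bars are list medians. General splicing factors lie between -0.98 and 0.43, and known targets between -1.57 and 6.60.

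Genes whose RNA these proteins are known to bind or splice were measured only as whole-gene levels, so exon choice is not covered. Of 28 listed, 22 were tested, and 6 rose, 12 fell and 4 did not pass. This is 81.8% past the threshold beside 62.3% of all genes, with 27.3% rising beside 32% and 54.5% falling beside 30.3%. Since the list was chosen with earlier results of these data known, nothing is read from these shares. The median log2 fold change was -0.38 beside 0.01 for all genes. Dab1, an adaptor of reelin signalling whose exons Nova2 controls, had 80.8, 87.1 and 93.6 CPM in Bcat1-KO cells and 1.21, 0.633 and 0.860 CPM in control cells. It rose by 6.60 on the log2 scale (SE 0.14, adjusted p = 9.3e-12, edgeR), and the groups were far apart. Mapt, which encodes tau, rose to 14.6 ± 3.04 CPM in Bcat1-KO cells against 0.824 ± 0.0996 CPM in control cells. Ccna2, a cyclin whose mRNA Elavl1 stabilises, rose to 207 ± 24.8 CPM in Bcat1-KO cells against 146 ± 3.15 CPM in control cells.

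Flna, an actin cross-linker with a Ptbp1-controlled exon, fell to 250.4, 267 and 290.3 CPM in Bcat1-KO cells against 797, 773 and 822 CPM in control cells. Fibronectin (Fn1), with an exon that Rbfox proteins promote, fell to 374 ± 43.9 CPM in Bcat1-KO cells against 896 ± 53.8 CPM in control cells, and Myc, an Elavl1-bound mRNA, to 13.6 ± 3.26 CPM against 31.1 ± 2.53 CPM in control cells (adjusted p = 7.74e-09, 2.82e-07 and 2.75e-05 for these 3 genes, edgeR). Dlg4, whose mRNA Ptbp1 and Ptbp2 send to decay, fell to 128 ± 11.1 CPM in Bcat1-KO cells against 171 ± 8.11 CPM in control cells (adjusted p = 0.00046, edgeR). Gap43, a classic Elavl4 target, had 5 counts over the knockout group and 4 over the control group and was not tested.

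Of 25 genes of the Rest repressor complex and of proneural factors, 18 were tested, and 6 rose, 4 fell and 8 did not pass, or 55.6% past the threshold beside 62.3% of all genes. On the log2(TPM + 1) scale 10 rose and 4 fell. Rest, named here after its value was seen, had 58.1, 58.5 and 60.5 CPM in Bcat1-KO cells and 67.8, 58.1 and 65.6 CPM in control cells. The groups overlapped and Rest did not pass (adjusted p = 0.192, edgeR). Its corepressor gene Rcor1 fell to 85.2 ± 6.55 CPM in Bcat1-KO cells against 138 ± 2.11 CPM in control cells, and the phosphatase gene Ctdsp2 and the neuroendocrine factor Insm1 had log2 fold changes of -0.52 and -0.96. Rcor2 and the histone demethylase gene Kdm1a rose by 0.27 and 0.21 on the log2 scale. Neurod1, the rightmost point of this list in the plot of lists, had 73 counts over the knockout group and 0 over the control group, so its fitted value is no bound on the fold.

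Markers of neurons moved in both directions. Of 23, 13 were tested, and 7 rose, 3 fell and 3 did not pass, or 76.9% past the threshold beside 62.3% of all genes. The share that rose was 53.8%, beside 32% of all genes, and the share that fell was 23.1%, beside 30.3%. With this list too chosen when earlier results were known, nothing is read from these shares. The summed level of these markers was 504 to 541 CPM in Bcat1-KO cells and 379 to 386 CPM in control cells. The most abundant was Map2, a dendritic microtubule protein, at 391 ± 28.5 CPM in Bcat1-KO cells and 168 ± 7.46 CPM in control cells. The higher sum rested on Map2 alone, since the other markers together summed to less in Bcat1-KO cells than in control cells. Stmn2, Nefl and Nefm were at 0 counts in all 6 libraries. Besides Map2, Dcx and Syn1 rose at low levels, with log2 fold changes of 1.97 and 1.19. Dcx was at 1.73 ± 0.0256 CPM in Bcat1-KO cells against 0.444 ± 0.189 CPM in control cells. Syn1 was at 2.91 ± 0.507 CPM in Bcat1-KO cells against 1.28 ± 0.148 CPM in control cells. Nsg2 fell to 11.3 ± 0.706 CPM in Bcat1-KO cells against 80.7 ± 4.53 CPM in control cells. The neuronal enolase gene Eno2 fell to 41.3 ± 7.30 CPM in Bcat1-KO cells against 87.7 ± 7.52 CPM in control cells. Celf4 is on this list too. The part that neuron-like cells may have in the levels of the 10 genes was not tested.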

How the data were processed

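RNA of 3 Bcat1-KO and 3 control libraries was sequenced after poly(A) selection with a stranded kit, per the labels' protocols. Per the submitters' processing notes, STAR 2.5.3a, featureCounts and the mm10 build were used. The gene models behind the counts were not given in the sources used here. The deposited tables hold raw read counts per gene, without strand and on each strand, and TPM values that the authors scaled within each library. Between 96.4% and 96.5% of stranded counts lay on the reverse strand, and these were used.

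Genes were kept with edgeR 4.0.16's filterByExpr (minimum count 10), which left 14020 genes, and the genes it dropped held 0.0511% of all counts. Libraries were scaled by TMM and tested with edgeR's quasi-likelihood test without covariates, with Benjamini-Hochberg adjustment over all tested genes at 0.05. In 1 library, 3 counts correspond to 0.0794 to 0.102 CPM. No library was taken as a duplicate, since replicate pairs gave a chi-square of 4.00 to 33.2 per gene.

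The 10 genes and the gene lists were chosen with earlier results of these data known. Named list genes were up to 3 per direction and list, ranked by size of change, from those past the threshold whose mean log2 CPM was 0 or more. Known targets could be named whatever their result, and the 3 genes nearest in pattern to Rbfox3 and to Elavl2 were added, and 2 list genes are not reported here. Gene types, exons and transcripts came from GENCODE M21, where 99.5% of gene IDs were found, and promoter windows from RefSeq. Coding sequences were aligned with Biopython 1.88. Analyses used R 4.3.3 and Python 3.11.15.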

Additional observations from a re-analysis of the deposited data

How the results depend on the processing

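The alternatives were RLE scaling, no low-count filter, limma-voom (limma 3.58.1), DESeq2 1.42.0, counts without regard to strand, limma-trend on log2(TPM + 1), a replicate block, a test against a 1.5-fold threshold and leaving out each library. None of the 13 alternatives run for each of the 10 genes turned a direction. Values moved by more than the replicate SD on the log2(TPM + 1) scale for Rbfox3 (-4.19), Elavl2 (1.70), Elavl3 (-0.19), Elavl4 (1.28) and Nova1 (1.91), and without Bcat1-KO replicate 3 for Rbfox3 (-9.19) and Ptbp1 (-0.43). With an added 1, low values are compressed by construction. The count over all genes was 8735, and 7639 to 9227 with 1 library left out. Against a 1.5-fold threshold it was 3045, with 11 other neural RNA-binding genes, 1 general splicing factor, 9 known targets and 4 Rest and proneural genes past it, since small changes no longer count. With 1 library left out those lists held 24 to 31, 14 to 23, 16 to 18 and 9 to 13 genes past the threshold. Same-numbered libraries did not deviate together (correlations of -0.05, -0.07 and 0.16), so the numbers were not taken as pairs, and not every library correlated best with its own number. The fit with a replicate block called 8662 genes, and 27, 22, 17 and 10 in these lists. Depth limits Rbfox3 in the knockout and Elavl3 in both groups, where few counts stand behind each value.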
